A study of Mus musculus with 13 samples.

Results

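Nrf2, encoded by Nfe2l2, and its repressor Keap1 were followed together with 8 antioxidant effector genes in primary fibroblasts from mouse embryos (MEFs) and in the immortalized lines that arose from them in culture. The members, chosen by symbol, are Nfe2l2, Keap1, Nqo1, Hmox1, Gclc, Gclm, Srxn1, Txnrd1, Slc7a11 and Cat, and each symbol matched 1 of the 55487 annotated genes in both count tables. All 10 passed the filter on low counts. The study sequenced poly-A RNA from 13 libraries: 3 WT primary clones (numbered 3, 4 and 5), the 3 WT immortalized lines of the same numbers, 3 primary clones labelled Prkd3-/- (13, 14 and 15) and 4 immortalized lines with that label (13, 13a, 14 and 15). Prkd3 encodes protein kinase D3. Primary WT cells came from separate embryos, and a line carries the number of its primary clone. No treatment was given beyond serial passage: cells that had stopped dividing were kept in medium richer in fetal calf serum until colonies grew out, so each line descends from whatever cells survived that step. All groups were grown with β-mercaptoethanol, a thiol reductant. Strain, embryo sex and the design of the Prkd3 allele are not given in the sources used here, and cells labelled Prkd3-/- have no description in the methods of the study. How line 13a relates to line 13 is not given either, and 13a was set against primary clone 13.

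Nrf2 is a transcription factor that cells keep scarce when they are not stressed. Keap1 binds it in the cytoplasm and hands it to a ubiquitin ligase for degradation, and oxidants or electrophiles that modify cysteines of Keap1 let Nrf2 accumulate, pair with small Maf proteins and bind antioxidant response elements in its target genes. The targets import cystine and build glutathione (Slc7a11, Gclc, Gclm), run the thioredoxin system (Txnrd1, Srxn1), reduce quinones (Nqo1) and break down heme (Hmox1). Catalase (Cat) removes hydrogen peroxide in peroxisomes. Fibroblasts in culture meet more oxygen than in the embryo, and oxidative damage is known as one of the stresses that push MEFs into senescence. Because the activity of Nrf2 is set largely at the level of the protein, mRNA of Nfe2l2 does not report it directly.

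The antioxidant response element core (letters TGACNNNGC, searched on both strands) was looked for in the 250 bases before the start of each gene, using RefSeq promoter sequences on GRCm38.p6. RefSeq promoters matched 8 of the 10 members, with 10 start sites among them, because Txnrd1 has 3. Those of Hmox1 and Gclc were not analysed here. The core was present at 3 of these 10 starts, belonging to Nfe2l2, Gclm and Txnrd1, against 10.2% of 32851 promoters of all genes. The windows that hold it are shown because Nrf2 acts through this element, with the match in capitals, 5′ to 3′ on the strand of the gene. In Nfe2l2 (chr2:75704865-75704913, minus strand) the match read in the direction of the gene. In Gclm (chr3:122245393-122245461, plus strand) and at the internal start of Txnrd1 (chr10:82859084-82859152, plus strand) it lay on the opposite strand, so the capitals show its reverse complement.
Nfe2l2: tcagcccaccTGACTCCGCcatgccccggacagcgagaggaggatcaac
Gclm: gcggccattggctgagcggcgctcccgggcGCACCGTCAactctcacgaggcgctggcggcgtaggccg
Txnrd1: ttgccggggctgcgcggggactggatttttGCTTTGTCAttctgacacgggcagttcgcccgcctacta

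The AP-1 motif (letters TGANTCA, both strands) shares its first letters with the element and was searched for its overlap. It was present before 1 member start, that of Srxn1 (chr2:152105392-152105515, plus strand), at 2 positions, against 6.75% of all promoters. None of the 3 antioxidant response element matches overlapped an AP-1 match. The AP-1 match of Srxn1 nearer to the start is followed by gc. It reads TGAGTCAGC there, which differs from the searched element letters only by G in place of the C. Forms of the element with that G were not searched, so their absence or overlap with AP-1 is not shown. Srxn1 encodes sulfiredoxin, which restores overoxidized peroxiredoxins.
Srxn1: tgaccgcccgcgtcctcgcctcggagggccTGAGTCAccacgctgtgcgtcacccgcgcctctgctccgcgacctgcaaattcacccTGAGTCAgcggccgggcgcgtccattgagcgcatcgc

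These matches describe the letters in a window and not occupied sites. Enhancers further away, where several known elements of this family lie, were outside the windows.

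Library totals ran from 35273408 to 100441756 counts. Levels are given as CPM, read counts scaled to the size of each library and by the trimmed mean of M-values (TMM). Prkd3 itself was still counted under the Prkd3-/- label, at 33.8 to 61.1 CPM against 69.7 to 93.6 CPM in WT libraries. The label was therefore used as a name only, and levels were not tested between genotypes, since genotype and count table cannot be told apart. Only the effect of immortalization was compared between them. Primary clone 14 stood apart from the other primary libraries of its label, differing from them by 33.5 to 39.9% beyond sampling noise while clones 13 and 15 differed by 14.5%. WT primary libraries differed from each other by only 4.01 to 6.51%, and lines of the same genotype by 42.3 to 73.0%. Why the WT primary libraries were so close was not tested, and comparisons within WT rest on that closeness. Summed CPM of 12 macrophage markers was 809 to 854 in WT primary libraries and 38.1 to 117 in WT lines. Under the Prkd3-/- label it was 103 in primary clone 13, 248 in clone 15 and 1164 in clone 14, and 12.3 to 192 in lines, with 13a highest. The fibroblast markers Dcn and Lum were under 1 CPM in WT line 3 and line 15, and Dcn was in line 13 as well, whereas the 8 fibroblast markers together summed to at least 13386 CPM in every library. In bulk RNA, fewer cells of a type and less RNA per cell cannot be told apart.

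No member passed the test for a change on immortalization, in either genotype or in both together, by an adjusted p under 0.01 with a |Log2FC| of at least 1. The same test, edgeR's quasi-likelihood test with Benjamini-Hochberg adjustment over all genes, called 1.82% of 19836 genes in WT (1.76% lower and 0.0605% higher), 0% of 20298 under the Prkd3-/- label and 0.712% of 21197 over both genotypes (0.693% lower and 0.0189% higher). With the clone number as a block these counts became 0 of 19836 in WT and 18 of 21197 over both genotypes, and no member was called there. DESeq2 called no member in any of these comparisons, while it called 1361 genes (4.08%) in WT, 190 (0.552%) under the Prkd3-/- label and 859 (2.37%) over both. At an unadjusted p under 0.05 the members higher in lines were Slc7a11 in WT, Gclc under the Prkd3-/- label and Gclc over both genotypes, and none was lower. The shares of all genes at that level were 19.7%, 6.56% and 16.9%. Levels of the members that were nearly equal in WT primary cultures lay further apart among lines, and within a line some members were higher and others lower than in its primary clone.

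**Figure D1:**
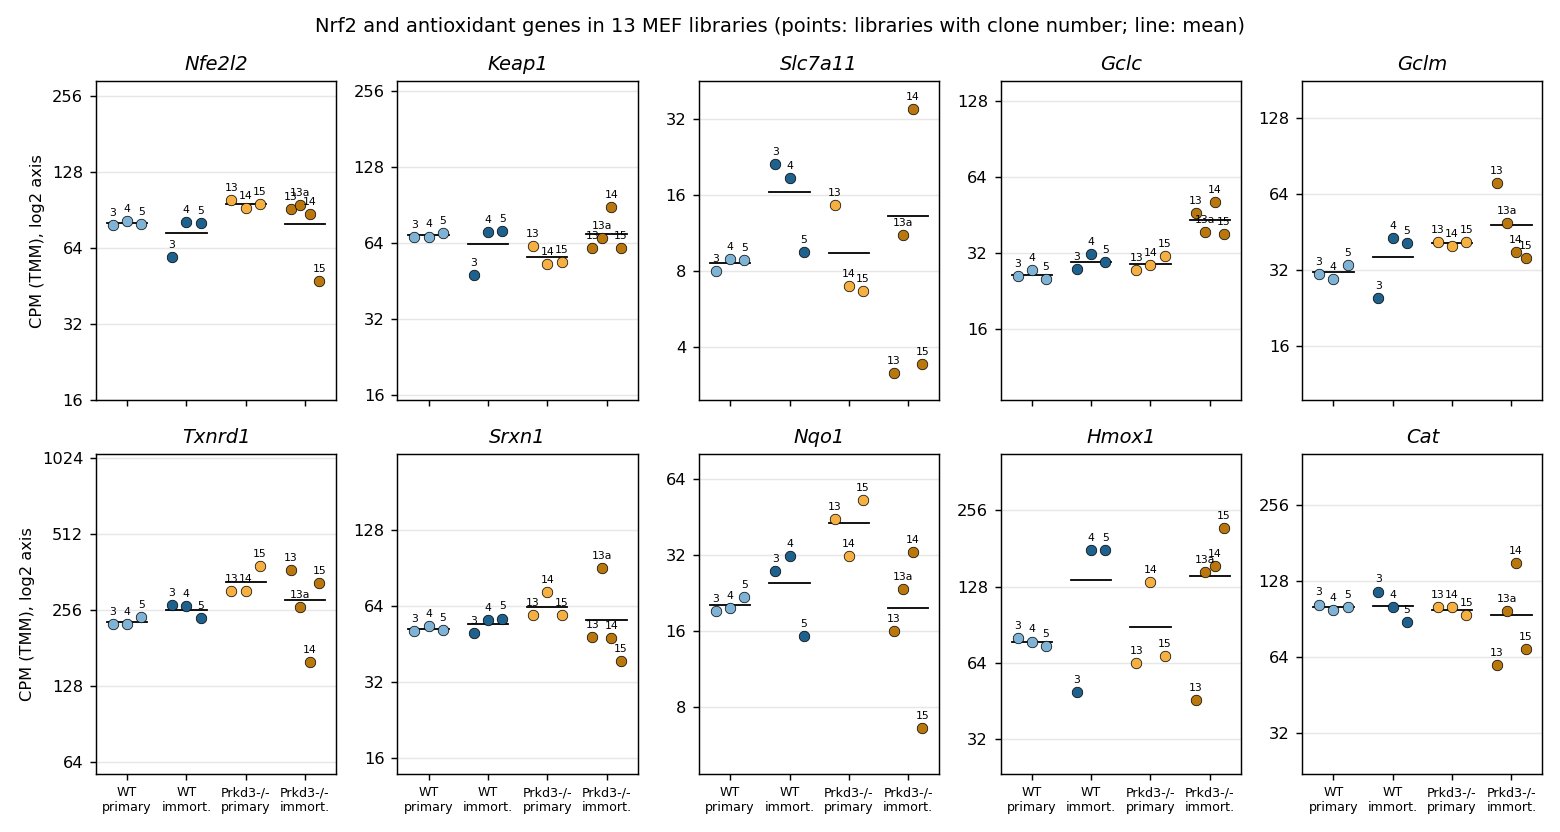
CPM (TMM-scaled) of each member in the 13 libraries on a log2 axis, with every panel spanning the same number of doublings; points are libraries marked by clone number, and bars are group means. The WT primary points lie close together for all genes, while Slc7a11, Nqo1 and Hmox1 scatter most among lines, for example Slc7a11 from 3.16 CPM in line 13 to 35.1 CPM in line 14.

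Nfe2l2 (ENSMUSG00000015839, chr2:75675513-75704641, minus strand) stayed near its primary level in most lines. It was counted at 78.5, 82.0 and 79.3 CPM in WT primary clones 3, 4 and 5 and at 58.8, 80.8 and 80.5 CPM in the lines of the same numbers. In cells labelled Prkd3-/- primary clones 13, 14 and 15 had 98.9, 91.6 and 95.3 CPM, and lines 13, 13a, 14 and 15 had 91.0, 94.4, 86.8 and 47.1 CPM. Line 15, and to a lesser degree WT line 3, was low, and the other lines stayed near their primary clones. The groups overlapped in both genotypes, and over both the Log2FC was −0.19 (SE 0.15, 95% confidence interval −0.52 to 0.13, adjusted p = 0.562). In WT the groups parted, with every line below every primary library, when library size alone set the scale. With TMM no member had every line below every primary library, which 17.4% of tested genes had in WT and 5.62% under the Prkd3-/- label.

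Keap1 (ENSMUSG00000003308, chr9:21229730-21239361, minus strand), the adaptor that presents Nrf2 for degradation, gave 67.7, 67.8 and 70.3 CPM in WT primary clones and 47.9, 70.8 and 71.5 CPM in WT lines 3, 4 and 5. WT line 3 was thus low for both partners. With the Prkd3-/- label Keap1 had 62.4, 52.8 and 53.8 CPM in primary clones and 61.0, 66.7, 88.8 and 60.8 CPM in lines 13, 13a, 14 and 15, where line 14 was highest. The Log2FC was −0.11 (SE 0.18) in WT and 0.31 (SE 0.19) under the Prkd3-/- label, with adjusted p of 0.783 and 0.835. Of the exon bases of Keap1, 10.9% overlap those of Gm16754, and in the WT table reads there were counted without strand.

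Slc7a11 (ENSMUSG00000027737, chr3:49892526-50443614, minus strand) encodes the light chain of the cystine and glutamate antiporter, the entry point of cystine for glutathione synthesis. In WT it was at 7.96, 8.95 and 8.80 CPM in primary clones 3, 4 and 5 and at 21.2, 18.6 and 9.54 CPM in the lines. All 3 WT lines lay above all 3 primary libraries, as 13.5% of tested genes did, and the same held under library size alone and under DESeq2 size factors. The Log2FC was 0.94 (SE 0.29, interval 0.21 to 1.66) with an adjusted p of 0.158. Line 5, the lowest of the WT lines, decided the call: without it the Log2FC was 1.21 with an adjusted p of 0.00403. Leaving out line 5 also raised the calls over all genes from 361 (12 higher) to 743 (38 higher).

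Under the Prkd3-/- label Slc7a11 showed no common direction. Primary clones 13, 14 and 15 had 14.5, 6.97 and 6.67 CPM, and lines 13, 13a, 14 and 15 had 3.16, 11.1, 35.1 and 3.43 CPM. Line 14 was the highest of all 13 libraries and lines 13 and 15 were the lowest, an 11.1-fold range among lines that carry the same label. The Log2FC of 0.49 (SE 0.86, interval −1.53 to 2.51) had an adjusted p of 0.926. It turned to −0.65 without line 14.

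Gclc (ENSMUSG00000032350, chr9:77754535-77794485, plus strand) encodes the catalytic subunit of glutamate-cysteine ligase, the rate-limiting enzyme of glutathione synthesis. In WT it was at 25.9, 27.4 and 25.3 CPM in primary clones 3, 4 and 5 and at 27.6, 31.7 and 29.6 CPM in the lines. Libraries labelled Prkd3-/- had it at 27.3, 28.8 and 31.2 CPM in primary clones and at 46.1, 38.7, 50.8 and 38.0 CPM in lines 13, 13a, 14 and 15. Each of the 7 lines was above its own primary clone, and the share of all genes for which this held was not counted.

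Under the Prkd3-/- label every line exceeded every primary library in Gclc, which 3.85% of tested genes did, and this held under both other scalings. In WT the separation was small, with the lowest line only 1.01-fold above the highest primary library, and the groups overlapped under library size alone and under DESeq2 size factors. The Log2FC was 0.18 (SE 0.09) in WT and 0.59 (SE 0.18) under the Prkd3-/- label. Over both genotypes it was 0.39 (SE 0.11, interval 0.16 to 0.63), a 1.31-fold higher level, with an adjusted p of 0.0789 by edgeR. That level was below the fold required of a call, and the adjusted p ran from 0.0163 to 0.214 over the alternatives. Without primary clone 14 and line 13a the Log2FC was 0.39 with an adjusted p of 0.155.

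Gclm (ENSMUSG00000028124, chr3:122245557-122270732, plus strand), the modifier subunit of the same ligase, did not follow Gclc line by line. In WT it was at 31.1, 29.6 and 33.5 CPM in primary clones and at 24.8, 42.9 and 40.9 CPM in lines 3, 4 and 5. Primary clones 13, 14 and 15 had 41.4, 39.9 and 41.4 CPM, and lines 13, 13a, 14 and 15 had 70.9, 49.2, 37.9 and 35.7 CPM. Line 14, with the highest Gclc, had Gclm below its own primary clone. The groups overlapped in both genotypes, and over both the Log2FC was 0.23 (SE 0.17, adjusted p = 0.553). Of the exon bases of Gclm 4.71% overlap Gm17494 and Gm6061.

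**Figure D2:**
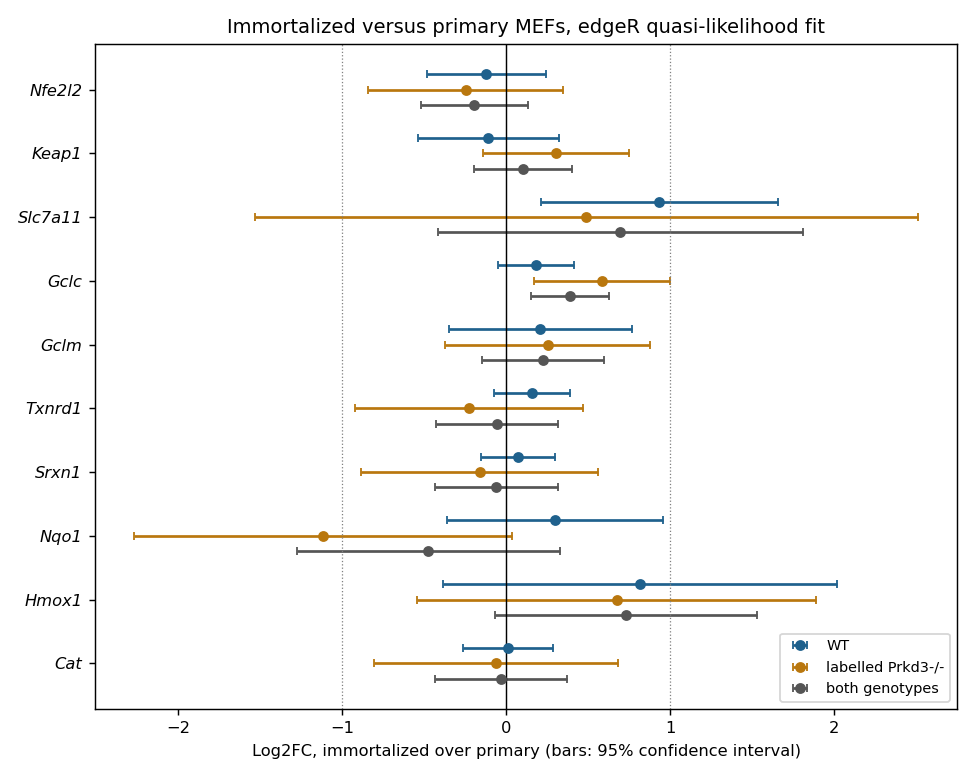
Log2FC of immortalized over primary MEFs for each member in WT, under the Prkd3-/- label and over both genotypes; bars are 95% confidence intervals of the edgeR quasi-likelihood fit, and dotted lines mark a |Log2FC| of 1. Intervals of Slc7a11 in WT (0.21 to 1.66) and of Gclc under the Prkd3-/- label (0.17 to 1.00) and over both genotypes (0.16 to 0.63) exclude 0, and none of the members was called after adjustment.

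Txnrd1 (ENSMUSG00000020250, chr10:82833951-82897712, plus strand), the cytosolic thioredoxin reductase that passes electrons from NADPH to thioredoxin, overlapped between WT primary clones and lines. The primary clones had 225, 226 and 239.8 CPM and lines 3, 4 and 5 had 268, 266 and 238 CPM, and with DESeq2 size factors every line was above every primary library. Primary clones 13, 14 and 15 had 304, 304 and 381 CPM and lines 13, 13a, 14 and 15 had 369.9, 264, 160.2 and 326 CPM. Lines 13a and 14 lay below all of these primary clones. Line 14 was the lowest, with a ratio to its own primary clone of −0.92 on the log2 scale. Over both genotypes the Log2FC was −0.05 (SE 0.17, interval −0.42 to 0.32, adjusted p = 0.915).

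Srxn1 (ENSMUSG00000032802, chr2:152105516-152111376, plus strand) was among the tightest members in WT, with 51.0, 53.1 and 51.3 CPM in primary clones and 49.8, 56.5 and 57.0 CPM in lines. In the other genotype it had 58.8, 72.8 and 58.6 CPM in primary clones 13, 14 and 15, and 48.1, 90.8, 47.6 and 38.9 CPM in lines 13, 13a, 14 and 15. Line 13a alone exceeded all primary libraries, and the other 3 lines lay below all of them. Over both genotypes the Log2FC was −0.06 (SE 0.17, adjusted p = 0.906), a sign that turned when primary clone 14, line 14 or line 15 was left out. The WT value, 0.07 (SE 0.09), was −0.06 under library size alone.

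Nqo1 (ENSMUSG00000003849, chr8:107388225-107403206, minus strand) encodes the quinone reductase most often used as a readout of Nrf2. In WT it was at 19.1, 19.6 and 21.7 CPM in primary clones 3, 4 and 5 and at 27.7, 31.4 and 15.2 CPM in the lines. Lines 3 and 4 were above all WT primary libraries and line 5 was below them. With the Prkd3-/- label it was at 44.1, 31.5 and 52.8 CPM in primary clones 13, 14 and 15 and at 15.9, 23.4, 32.8 and 6.56 CPM in lines 13, 13a, 14 and 15. Here 3 of 4 lines were below every primary library, and line 14 was just above primary clone 14.

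The Log2FC of Nqo1 was 0.30 (SE 0.27, interval −0.36 to 0.96, adjusted p = 0.598) in WT and −1.12 (SE 0.49, interval −2.27 to 0.03, adjusted p = 0.769) under the Prkd3-/- label. The difference between these effects was −1.42 (SE 0.64, interval −2.81 to −0.02), with an unadjusted p of 0.0469 and an adjusted p of 0.9998. That comparison called 0% of 21197 genes at an adjusted p under 0.05, with 839 genes (3.96%) at an unadjusted p under 0.05 and 37 called by DESeq2. Nqo1 was the single member under that unadjusted level. Without primary clone 14 and line 13a, left out after the data were seen, the difference was −1.68 (SE 0.72, adjusted p = 0.9999 by edgeR).

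Hmox1 (ENSMUSG00000005413, chr8:75093621-75100589, plus strand) encodes heme oxygenase 1, which is induced by heme and by oxidants and is also well expressed in macrophages. In WT it was at 79.7, 77.5 and 74.3 CPM in primary clones and at 48.8, 178 and 179 CPM in lines 3, 4 and 5. Primary clones 13, 14 and 15 had 64.0, 134 and 68.0 CPM, and the value was 45.5, 146, 154 and 218 CPM in lines 13, 13a, 14 and 15. In each genotype 1 line (3 and 13) fell short of every primary library while the rest exceeded every one of them, so the groups overlapped.

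The Log2FC of Hmox1 was 0.82 (SE 0.49, adjusted p = 0.422) in WT, 0.67 (SE 0.52, adjusted p = 0.853) under the Prkd3-/- label and 0.73 (SE 0.37, interval −0.06 to 1.53, adjusted p = 0.338) over both. Line 3 decided the WT call: without it the Log2FC was 1.22 with an adjusted p of 0.00164. Leaving out line 3 also raised the WT calls over all genes from 361 (12 higher) to 539 (81 higher). Primary clone 14 had both the highest Hmox1 of the primary libraries and the highest macrophage marker sum, 1164 CPM. Without that clone and line 13a the Log2FC over both genotypes was 0.94 with an adjusted p of 0.297. Among lines, the marker sum was 21.4 CPM in line 15, 117 CPM in WT line 5, 38.1 CPM in WT line 4, 12.3 CPM in line 14 and 192 CPM in line 13a, the 5 with the most Hmox1, and 49.9 CPM in WT line 3 and 22.0 CPM in line 13, the 2 with the least. The part of macrophages in the Hmox1 values was not tested. In line 15 8 of the 12 markers were under 1 CPM. In line 13, which had the least Hmox1, 8 of the 12 were at 0 counts.

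Cat (ENSMUSG00000027187, chr2:103453849-103485160, minus strand) was level on average. In WT it had 103, 98.2 and 101 CPM in primary clones 3, 4 and 5 and 116, 101 and 88.2 CPM in the lines. Among Prkd3-/- libraries it had 101, 101 and 93.6 CPM in primary clones, and 59.4, 97.4, 151 and 68.9 CPM in lines 13, 13a, 14 and 15. Lines 13 and 15 were low and line 14 was high, as for Slc7a11. The Log2FC over both genotypes was −0.03 (SE 0.18, interval −0.43 to 0.37, adjusted p = 0.955), and its sign depended on which line was left out.

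Levels of different genes were compared per kilobase of exon. In WT primary cells the order was Hmox1 (44.1 ± 1.55 CPM per kb, SD, n = 3), Cat (38.6 ± 0.989), Txnrd1 (32.5 ± 1.16), Nfe2l2 (21.1 ± 0.487), Srxn1 (18.4 ± 0.401), Keap1 (14.6 ± 0.310), Nqo1 (12.97 ± 0.884), Gclc (6.95 ± 0.287), Gclm (4.99 ± 0.312) and Slc7a11 (0.616 ± 0.0382). No neighbours in that order had overlapping ranges. Among WT lines the ranges of 5 of the 9 neighbouring pairs overlapped. Hmox1, Cat and Txnrd1 formed an upper block and Nfe2l2, Srxn1, Nqo1 and Keap1 a second one, with overlaps inside each, although Cat was above Txnrd1 in 3 of 3 lines. In primary clones labelled Prkd3-/- 3 of 9 pairs overlapped, among them that of Nqo1, at 27.5 ± 6.90 CPM per kb (SD, n = 3), with Nfe2l2, which it exceeded in 2 of 3 libraries. Among lines with that label 8 of 9 pairs overlapped. Slc7a11 was last per kilobase in all 4 groups, and its range overlapped that of the gene above it in none.

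Each line was next set against its own primary clone, taken by the number in the titles, as the difference in log2 CPM. Of the 70 pairs of line and member 11 differed by at least 2-fold, and these involved 4 members: Hmox1 in 4 lines, Slc7a11 in 4, Nqo1 in 2 and Nfe2l2 in 1. Under library size alone 9 pairs did, none of them of Nfe2l2, and under DESeq2 size factors 11 did. Gclc was the member that was higher in 7 of 7 lines, by 0.10 to 0.82, and under library size alone it was higher in 6 of 7. Nfe2l2 was lower in 6 of 7, and in 7 of 7 under library size alone. The share of all genes on the same side of their primary clone in every line was not counted. These counts of lines therefore have no base rate beside them, and lines 13 and 13a share 1 primary clone. The ratios carry no replicate of their own.

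**Figure D3:**
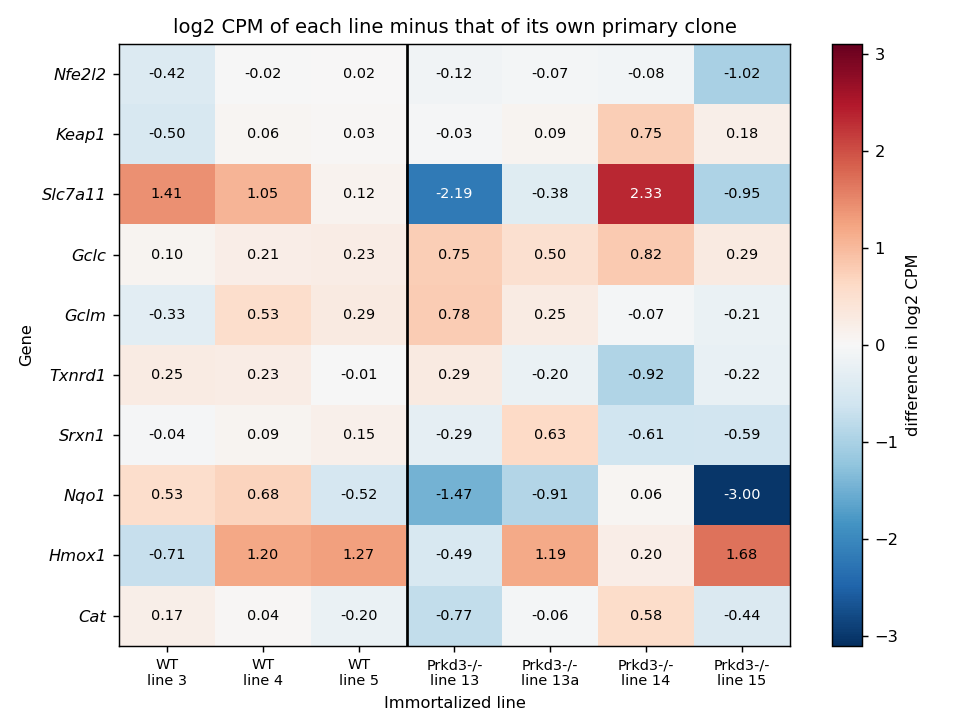
Difference in log2 CPM between each of the 7 immortalized lines and its own primary clone for the 10 members, with the value printed in each cell; red is higher and blue is lower in the line. Slc7a11 ranges from −2.19 in line 13 to 2.33 in line 14 and Nqo1 reaches −3.00 in line 15, while Gclc is positive in all 7 lines.

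Line 15 had the lowest single ratio and the most members at least 2-fold from the primary clone, 3 of 10, whereas the median absolute ratio was larger in line 13 (0.62) and line 14 (0.60) than in line 15 (0.52). In line 15 Nqo1 was lower by 3.00 on the log2 scale, Slc7a11 by 0.95 and Nfe2l2 by 1.02, yet Hmox1 was higher by 1.68. Known Nrf2 targets thus had ratios of opposite sign in the same library. Line 13 had Slc7a11 at −2.19 and Nqo1 at −1.47 beside Gclm at 0.78 and Gclc at 0.75. The mRNAs of the cystine transporter and of the ligase subunits thus had ratios of opposite sign there. Line 14 had Slc7a11 at 2.33 and Gclc at 0.82 with Txnrd1 at −0.92 and Srxn1 at −0.61, both genes of the thioredoxin branch.

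WT line 3 had Slc7a11 at 1.41 with Hmox1 at −0.71, the reverse of the pair in WT line 5, where Slc7a11 was at 0.12 and Hmox1 at 1.27. In WT line 4 both were higher, at 1.05 and 1.20. Line 13a had Hmox1 at 1.19 and Srxn1 at 0.63 with Nqo1 at −0.91. In no line were all 10 members on the same side of 0. WT line 4 came nearest, with 9 of 10 higher. The share of all genes at least 2-fold from the own primary clone was 17.8 to 34.5% by line, against 1 to 3 of 10 members.

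The spread of the members among lines was wider than among primary libraries for 10 of 10 genes in each genotype, as the SD of log2 CPM. Of all tested genes 89.1% in WT and 83% under the Prkd3-/- label did the same. The median SD of the members was 0.05 in WT primary libraries and 0.30 in WT lines, and 0.16 and 0.53 under the Prkd3-/- label. Over 12325 genes with a mean of at least 5 CPM the medians were 0.05, 0.26, 0.19 and 0.43. Hmox1 had the widest spread among WT lines (1.08) and Slc7a11 among lines labelled Prkd3-/- (1.63). Txnrd1 (0.10) and Gclc (0.20) had the narrowest in the respective groups.

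**Figure D4:**
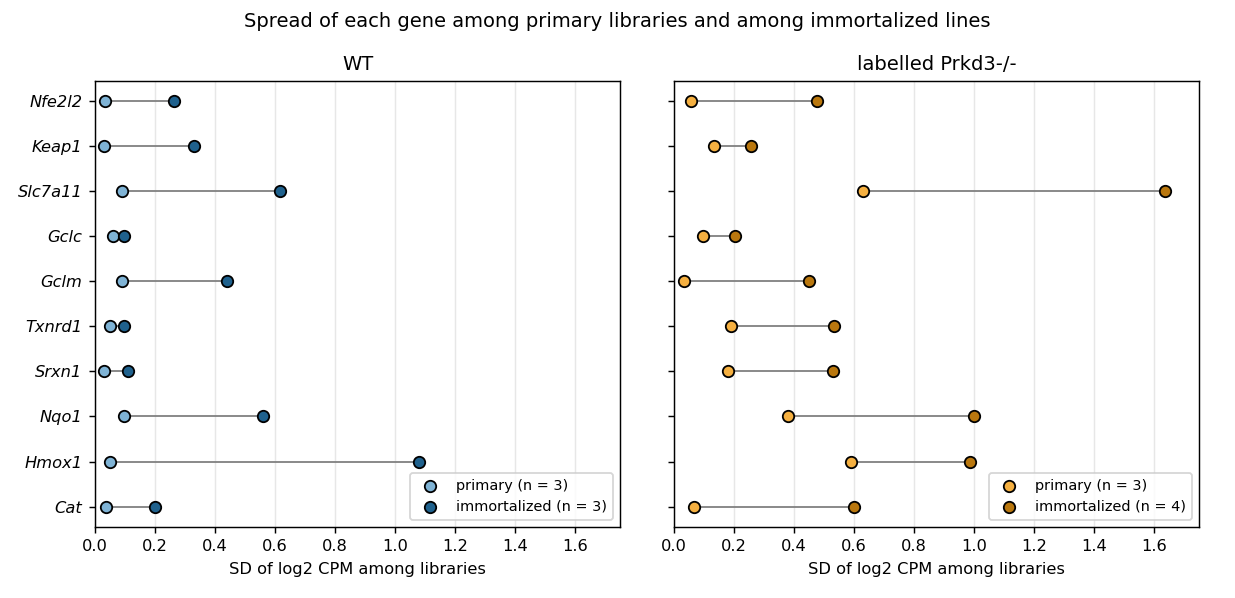
SD of log2 CPM of each member among primary libraries (light points) and among immortalized lines (dark points), for WT on the left and the Prkd3-/- label on the right. The dark point lies to the right of the light point for all 10 genes in both panels, most of all for Hmox1 in WT (0.05 to 1.08) and Slc7a11 under the Prkd3-/- label (0.63 to 1.63).

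For the members with the largest SD over all 13 libraries, Slc7a11, Nqo1 and Hmox1, the genes with the most similar profile were sought among 15803 genes of at least 1 CPM on average. Likeness was the root mean squared difference of log2 CPM after centring each gene on its mean. Nearest to Slc7a11 were Mmp16 (0.46), which encodes a membrane-bound matrix metalloproteinase, AI464131 (0.46) and Bean1 (0.47). Nearest to Nqo1 were Nudt17 (0.34), Cd80 (0.36), a costimulatory ligand of T cells, and 2210016F16Rik (0.42). Nearest to Hmox1 were Vcan (0.33), the large matrix proteoglycan versican, Yjefn3 (0.33) and Grina (0.34). No other member was among the 3 nearest of any of them. Only 3 of 15803 genes were kept for each, so this cannot show whether the members vary together.

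The wider pathway was described with 7 lists of 80 genes that hold none of the members. Over both genotypes 1 of 80 was called, lower, and 6 higher and 7 lower genes were at an unadjusted p under 0.05, 16.2% of the lists against the 16.9% of all genes. Their median Log2FC was 0.08 and that of all genes 0.05. In WT 1 of 80 was called, lower, and 15 were higher and 14 lower at an unadjusted p under 0.05. That made 36.2% of the lists against 19.7% of all genes. Under the Prkd3-/- label 0 of 79 tested were called, with 1 higher and 4 lower at that level, 6.33% against 6.56%.

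Among the 10 genes that control Nrf2, 7 had a positive and 3 a negative Log2FC over both genotypes (median 0.19) and 0 were called. The smallest p values belonged to Sqstm1, whose product p62 can sequester Keap1, at 0.42 (SE 0.18, adjusted p = 0.270), and to Bach2, a repressor that binds Maf sites, at −0.63 (SE 0.32, adjusted p = 0.343). Of the exon bases of Sqstm1 17.3% overlap Mrnip. In the 23 genes of glutathione synthesis, reduction and use 14 were positive and 9 negative (median 0.19), and 1 was called, lower. That gene was Gstt2, a glutathione transferase, at 0.88 to 1.23 CPM in WT primary libraries, 0.10 to 0.24 CPM in WT lines, 0.37 to 0.83 CPM in primary clones labelled Prkd3-/- and 0.11 to 0.29 CPM in lines with that label. Its Log2FC was −2.24 (SE 0.37, adjusted p = 0.0081), and with the clone number as a block the adjusted p was 0.0556. Leaving out any 1 library other than line 13a also ended the call, with adjusted p of 0.0122 to 0.0250.

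Gpx1, the main cytosolic glutathione peroxidase, had a Log2FC of −0.54 (SE 0.12, adjusted p = 0.0355), with 310.1 to 352 CPM in WT primary libraries and 181 to 285 CPM in WT lines. It was also below in lines of the other label, at 207 to 283 CPM against 314 to 394 CPM (adjusted p = 0.686 by edgeR). Gpx1 met neither the fold nor the adjusted p required of a call. In the 15 thioredoxin and peroxiredoxin genes 7 were positive and 8 negative (median −0.06) and 0 were called. Txnrd3, a thioredoxin-glutathione reductase, had 0.72 (SE 0.16, adjusted p = 0.0282). Over both genotypes it was at 8.62 to 10.6 CPM in primary libraries and 10.9 to 23.5 CPM in lines. Gpx1 and Txnrd3 were named for their small p in this comparison, so ranges that do not overlap follow in part from that choice. The share of all genes with such ranges over both genotypes was not counted. Txn2, the mitochondrial thioredoxin, had 0.22 (SE 0.10, adjusted p = 0.278).

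The 9 superoxide genes held the one called in WT, Cybb, which encodes the catalytic subunit of the phagocyte NADPH oxidase. Cybb fell from 41.4 to 42.6 CPM in WT primary libraries to 1.44 to 3.17 CPM in WT lines, by 4.18 on the log2 scale (SE 0.31, adjusted p = 0.00248). With all 13 libraries in 1 fit the SE was 1.76 and the adjusted p 0.425. With the clone number as a block the adjusted p was 0.0272, and leaving out any 1 WT primary clone also ended the call, with adjusted p of 0.0209 to 0.0228. Cybb is a leukocyte gene, and the macrophage marker sum was at least 809 CPM in the same WT primary libraries and at most 117 CPM in the WT lines, with 8 of the 12 markers called lower. In the other genotype Cybb was highest in primary clone 14, at 31.0 CPM, and in line 13a, at 10.1 CPM, the libraries with the highest marker sums of their groups. The part of such cells in these values was not tested. Among cytosolic subunits of the same oxidase, Ncf4 had −3.78 (SE 0.93, adjusted p = 0.0491) and Ncf1 −3.87 (SE 1.00, adjusted p = 0.0607) over both genotypes. Neither was called by edgeR, whereas DESeq2 called both (adjusted p = 0.000292 for Ncf4 and 0.000435 for Ncf1) and limma called Ncf4 (adjusted p = 0.00955). Without line 13a edgeR called both, Ncf4 at −5.01 (adjusted p = 0.00383) and Ncf1 at −5.38 (adjusted p = 0.00413), and Cybb over both genotypes was called too, at −4.95 (adjusted p = 0.00735). Of the exon bases of Ncf1 11.1% overlap Gtf2ird2.

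The other lists held no called gene. In NADPH supply, which feeds both glutathione and thioredoxin reductase, 5 of 6 genes were negative over both genotypes (median −0.06), and the smallest p values were those of Pgd at −0.49 (SE 0.19, adjusted p = 0.196) and Taldo1 at −0.19 (SE 0.17, adjusted p = 0.634). In heme, iron and ferritin 5 of 7 were negative (median −0.06). The smallest p values there were those of Blvra, the biliverdin reductase that acts on the product of Hmox1, at −0.32 (SE 0.17, adjusted p = 0.369) and Ftl1, the ferritin light chain, at −0.40 (SE 0.22, adjusted p = 0.384). Ftl1 shares 34.6% of its exon bases with other annotated genes and has many pseudogenes, so its counts are uncertain. In the remaining detoxification genes 7 of 10 were positive (median 0.23), and the smallest p values were those of Akr1b8 at 0.36 (SE 0.18, adjusted p = 0.322) and Aifm2 at 0.29 (SE 0.15, adjusted p = 0.348).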

How the data were processed

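Gene counts of poly-A RNA (paired reads, NovaSeq) were deposited as 2 tables, 1 for each genotype label. Per the methods and the labels, the authors aligned reads to mm10 with STAR 2.7.10a and assigned uniquely mapped reads to GRCm38.102 genes with featureCounts of Subread 2.0.6. The header of the WT table shows paired counting with overlaps allowed and no strand. The other table shows no settings. Values are raw counts as deposited, and both tables list the same 55487 genes.

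Members and gene lists were chosen with earlier results of these data known. Groups came from the sample titles. Counts were tested in edgeR 4.0.16 (R 4.3.3) with TMM factors, filterByExpr and robust quasi-likelihood estimation, within each genotype, over both with genotype as a covariate, and for the interaction. Genes were called at an adjusted p under 0.01 with a |Log2FC| of at least 1, or an adjusted p under 0.05 for the interaction. SE is the absolute Log2FC divided by the square root of F. The log2 CPM used a prior count of 1. Named genes were the members, pathway genes called in any comparison, the 2 with the smallest p per list over both genotypes, and the 3 nearest profiles of the 3 most variable members. A gene of the lists is not reported here. The code was tested on simulated counts.

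The clone number in the titles pairs lines with the primary culture of the same clone. Deviations of same-numbered WT libraries correlated at −0.04 to 0.02, and those of the other genotype at −0.28 to 0.14. Libraries with different numbers correlated at −0.03 to 0.06 in WT and at −0.30 to 0.34 in the other genotype. Line 13a was at 0.34 with primary clone 14 and at −0.28 with clone 13, and line 13 was at 0.30 with clone 15. The pairing thus rests on the titles and not on these values. Alternatives were DESeq2 1.42.0, scaling by its size factors or by the library totals, other filters and thresholds, limma 3.58.1 with a weight per group, the clone as a block, a joint fit, lines 13 and 13a summed and each library left out. Leaving out primary clone 14 with line 13a, and the overlap of groups under other scalings, were added after the data were seen. With 35273408 to 100441756 counts a library, members had at least 172 counts each, which leaves counting error small beside the spread between libraries.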

Additional observations from a re-analysis of the deposited data

Results flagged for a closer look

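In 25 sets of 4 lines labelled Prkd3-/- (1 for each named gene), a library far from its nearest neighbour was sought. That distance had to take up most of the range of the set in CPM, by Dixon's criterion at the 95% level. Chance meets the criterion in about 1 of 20 sets if values are normally distributed, which was not tested. The criterion was met by 6 genes. Among the members it was met by Nfe2l2, the Nrf2 gene itself, at 47.1 CPM in line 15 against 86.8 to 94.4 CPM in the other lines. The NADPH oxidase subunits Cybb (10.1 CPM), Ncf1 (5.67 CPM) and Ncf4 (1.05 CPM) stood high in line 13a, the line with the highest macrophage marker sum, 192 CPM. Their flags rest on the CPM scale, since the criterion was not applied to log2 CPM. On that scale Cybb was at 3.34 in line 13a and at −1.18, −2.13 and −6.10 in lines 14, 15 and 13. These subunits were flagged in the same line, so their sets may not be independent. Aifm2, which reduces ubiquinone at membranes, stood high in line 14 at 34.6 CPM. Akr1b8, an aldo-keto reductase, stood high in line 15 at 76.1 CPM, the line where Nfe2l2 was lowest.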

How the results depend on the processing

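The number of members called stayed at 0 in every comparison under every alternative that kept all libraries, and under the joint removal of primary clone 14 and line 13a. With single libraries left out it ran from 0 to 1 in WT, through Hmox1 without line 3 and Slc7a11 without line 5, and was 0 elsewhere. Calls over all genes rose in these settings too. They were 539 of 20370 (81 higher) without line 3 and 743 of 20285 (38 higher) without line 5, against 361 of 19836 (12 higher). Of 400 member Log2FC values under the other alternatives 15 turned sign, none of them called. Under library size alone, which moved the median Log2FC of all genes from 0.04 to −0.10 in WT and from 0.04 to 0.18 in the genotype difference, these were Srxn1 (−0.060) and Cat (−0.13) in WT and Nfe2l2 (0.0054) and Cat (0.071) in the difference. Cat in WT was −0.017 when each library had to hold 10 counts or more. With the replicate block Slc7a11 under the Prkd3-/- label was −0.15, and the genotype differences of Hmox1 and Gclm were 0.18 and −0.044. Apart from the calls of Cybb and Gstt2 given above, the block changed no other call of a member or named pathway gene. Limma gave −0.14 for Slc7a11 under the Prkd3-/- label and 0.0076 for Txnrd1 over both genotypes. With lines 13 and 13a summed, Cat was 0.013 under the Prkd3-/- label and 0.011 over both, and the genotype differences of Hmox1 and Gclm were 0.017 and −0.12. Without primary clone 14 and line 13a the difference of Hmox1 was 0.27. Under library size alone 1 member in place of 2 had every WT line above every primary library.

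Leaving out single libraries gave ranges that crossed 0 for Nfe2l2 (−0.20 to 0.028), Keap1 (−0.21 to 0.069) and Cat (−0.082 to 0.10) in WT, for Slc7a11 (−0.65 to 0.94) and Cat (−0.38 to 0.10) under the Prkd3-/- label, and for Srxn1 (−0.20 to 0.034), Txnrd1 (−0.11 to 0.077) and Cat (−0.18 to 0.058) over both. In the genotype difference they did so for Nfe2l2 (−0.28 to 0.069), Hmox1 (−0.57 to 0.29), Gclm (−0.20 to 0.18), Slc7a11 (−1.58 to 0.012) and Cat (−0.38 to 0.090). The cause was not tested.

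Over all genes the calls were less stable. WT had 361 with edgeR, 1361 with DESeq2, 483 without a filter (464 lower), 157 with at least 10 counts, 184 with limma, 0 with the clone as a block (2784 at an unadjusted p under 0.05), 0 in the joint fit (2196 at that p) and 48 (without primary clone 3) to 743 (without line 5). Over both genotypes 151 became 859 with DESeq2, 7 with at least 10 counts, 358 with limma, 18 with the block, 241 with lines 13 and 13a summed, 396 without primary clone 14 and line 13a, and 31 (without WT primary clone 4) to 408 (without line 13a). An adjusted p under 0.05 gave 868 in WT and 548 over both. Under the Prkd3-/- label 0 became 190 with DESeq2 and 1 in the joint fit (1331 at an unadjusted p under 0.05 by edgeR), and in the genotype difference 0 became 37 with DESeq2 and 2 without line 14. Counting error was small beside the spread between lines, and the interval for Hmox1 over both genotypes ran from 0.956-fold to 2.89-fold.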
